A study of Mus musculus with 4 samples.

Results

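The genes described here are 10 transcription factor genes that mark progenitor cells of the mouse neural tube: the pan-neural genes Sox1, Sox2 and Sox3, the dorsal and intermediate genes Msx3, Pax6, Irx3 and Dbx1, and the ventral genes Nkx6-1, Olig2 and Nkx2-2. They were taken as every probe set that the platform annotation gave to 1 of these symbols alone, which found 16 probe sets of the 45037 on the array that were tested, for 10 of the 18193 genes. Pax6 had 5 probe sets, Sox1 and Sox3 had 2 each, and the other genes had 1 each.

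Expression was measured on Affymetrix whole-genome mouse arrays with RNA of whole E9.0 embryos, 2 labelled Gcnf-/- and 2 labelled wt. Gcnf is an older name of Nr6a1, an orphan nuclear receptor. The Gcnf-/- embryos were homozygous mutants that lack the receptor in every tissue, and the wt embryos were homozygous for the wild-type allele. According to the study's methods RNA was extracted from each embryo, so each array was taken as a separate embryo, and the collection window of those methods reaches beyond the stage in the labels. The study's methods keep the line on a background written there as C56BL/6, and the sources used here do not give litter, somite number or scan date. Embryos without Nr6a1 are known to die at mid-gestation without turning, and the effect of the mutation on gene expression and a difference in developmental stage cannot be told apart with these arrays.

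The neural tube is patterned from its ventral side by Sonic hedgehog, secreted by the notochord and floor plate, and from its dorsal side by BMP and Wnt signals from the roof plate. The opposing signals set up stripes of progenitors along the dorsoventral axis, each defined by a combination of homeodomain and basic helix-loop-helix factors, and neighbouring factors such as Pax6 and Nkx2-2 or Irx3 and Olig2 repress each other at their shared boundary. The SoxB1 factors Sox1, Sox2 and Sox3 keep cells of the whole tube in the progenitor state, whatever their position.

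All signals are log2 values made by the authors with RMA, and differences are Gcnf-/- minus wt with the standard error (SE) of limma. A probe set was called at a limma adjusted p of 0.05 or lower, adjusted over all 45037 probe sets, together with a difference of at least 2-fold (1 on the log2 scale). On the whole array 35 probe sets (0.0777%) were called lower in Gcnf-/- embryos and 137 (0.304%) were called higher. With no fold threshold the adjusted p was passed by 115 (0.255%) in the lower direction and by 324 (0.719%) in the higher one. The smallest two-sided p that an exact permutation of 2 against 2 arrays allows is 0.333, so each p rests on the spread that limma shares across probe sets. The deposited values come without detection calls, and 43 probe sets of olfactory receptors, genes of the nasal epithelium, served to show the signal of transcripts that the embryo is not known to make in quantity. Their mean signals had a median of 4.92 and a 95th percentile of 6.07, called the olfactory receptor level here.

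The samples also differed in features other than genotype. One embryo, wt replicate 1, was female by Xist (6.44 and 6.61 in Gcnf-/- embryos against 13.11 and 6.68 in wt embryos) and by the Y-linked Eif2s3y (9.48 and 9.31 against 4.25 and 9.52), and the other 3 were male. The probe sets of 18S ribosomal RNA averaged 10.83 and 10.74 in Gcnf-/- embryos and 9.45 and 9.99 in wt embryos. The 3′ minus 5′ signal of the transferrin receptor control, a sign of RNA integrity, was 3.85 and 3.72 in Gcnf-/- embryos and 3.45 and 3.40 in wt embryos. That of the beta-actin control lay the other way, at 0.35 and 0.39 in Gcnf-/- embryos and 0.49 and 0.42 in wt embryos. That of the Gapdh control overlapped, so the controls gave no common direction. The part of these features in the results was not tested. All 5 probe sets of Nr6a1 read higher in Gcnf-/- embryos by 0.05 to 0.56, none past the test. The sources used here do not place the probes relative to the mutated part of the gene, so they do not check the genotype labels. In RNA of whole embryos, fewer cells of a type and less RNA per cell cannot be told apart.

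The 3 ventral genes were all lower in Gcnf-/- embryos, by 0.96, 0.80 and 0.39 on the log2 scale, with no overlap between the genotypes. Of all genes, 30.4% lay below wt without overlap. Both Gcnf-/- signals of Nkx2-2, the gene with the largest difference, lay under the olfactory receptor level. The intermediate gene Dbx1 was lower by a log2 difference of the same size as that of Nkx6-1. The remaining genes mark dorsal or intermediate cells or the whole tube. Of these, Sox1 and Irx3 were higher without overlap, by 0.46 and 0.18, where 26.2% of all genes lay above wt without overlap. The difference of Sox1 was thus larger in size than that of the ventral gene Nkx6-1. Pax6, Msx3, Sox2 and Sox3 overlapped on their brightest probe sets, with differences from -0.14 to 0.13. Of the 16 probe sets 0 were called in either direction at the 2-fold threshold, where 0.0777% of all probe sets were called lower and 0.304% higher. The adjusted p was passed by 1, that of Nkx2-2, where 0.255% of all probe sets passed it in the lower direction.

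**Figure D1:**
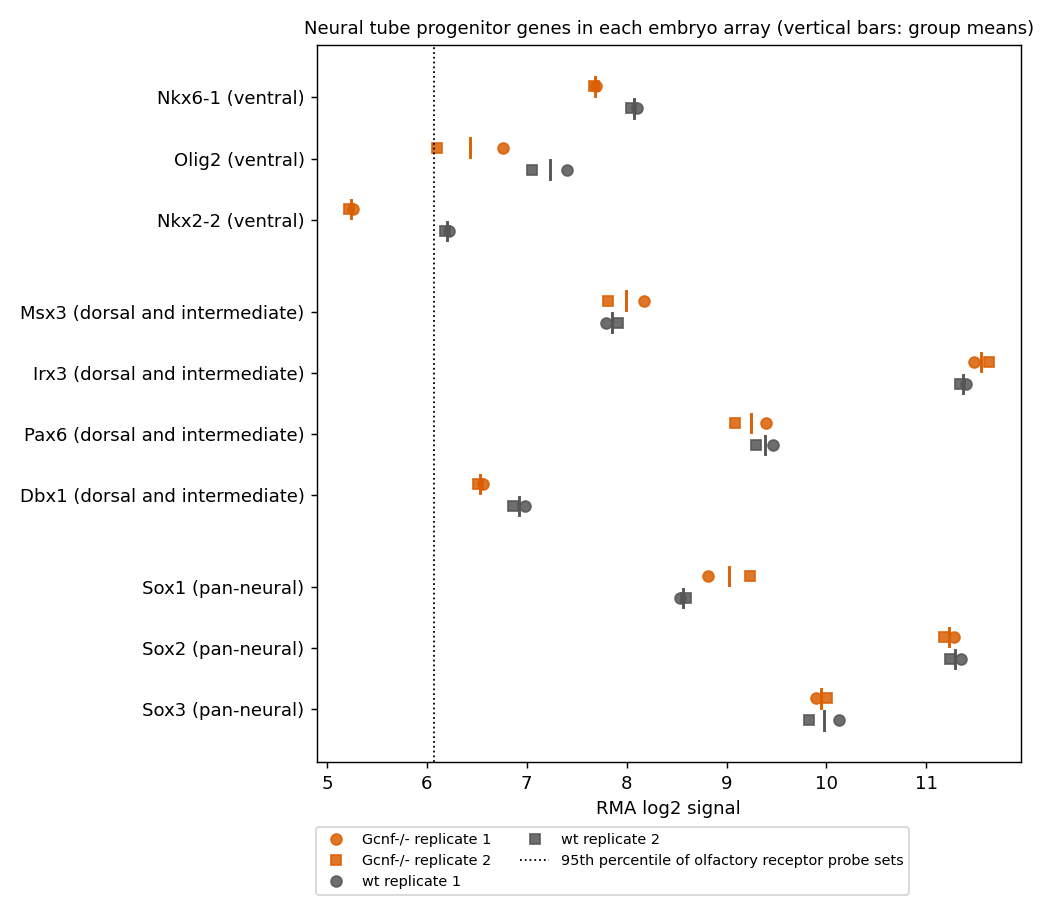
RMA log2 signal (horizontal axis) of the brightest probe set of each of the 10 genes in 2 Gcnf-/- embryos (orange, upper row of each pair) and 2 wt embryos (grey, lower row), with vertical bars for the group means and the dotted line for the olfactory receptor level of 6.07. The orange and grey points are apart for Nkx6-1, Olig2, Nkx2-2 and Dbx1, with Gcnf-/- embryos on the left, and apart for Sox1 and Irx3 with Gcnf-/- embryos on the right.

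Because the ventral genes lay on one side of wt together, the sequences upstream of their start sites are shown, taken from the RefSeq promoter windows of GRCm38.p6. Each is the 250 bases before the annotated start, 5′ to 3′ on the gene's strand, and capitals mark matches to the motifs named after them. The windows lie at chr2:147186403-147186652 (minus strand) for Nkx2-2, chr5:101664712-101664961 (minus strand) for Nkx6-1 and chr16:91225300-91225549 (plus strand) for Olig2.
Nkx2-2: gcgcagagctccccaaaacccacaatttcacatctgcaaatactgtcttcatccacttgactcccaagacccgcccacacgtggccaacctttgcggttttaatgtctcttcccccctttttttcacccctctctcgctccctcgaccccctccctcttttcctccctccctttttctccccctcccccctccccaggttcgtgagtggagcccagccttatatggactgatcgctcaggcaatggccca
Nkx6-1: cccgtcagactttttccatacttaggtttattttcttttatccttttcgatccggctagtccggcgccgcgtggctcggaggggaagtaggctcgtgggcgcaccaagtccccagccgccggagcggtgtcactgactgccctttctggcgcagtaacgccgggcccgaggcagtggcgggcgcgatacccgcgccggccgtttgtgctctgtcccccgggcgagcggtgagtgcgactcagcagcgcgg
Olig2: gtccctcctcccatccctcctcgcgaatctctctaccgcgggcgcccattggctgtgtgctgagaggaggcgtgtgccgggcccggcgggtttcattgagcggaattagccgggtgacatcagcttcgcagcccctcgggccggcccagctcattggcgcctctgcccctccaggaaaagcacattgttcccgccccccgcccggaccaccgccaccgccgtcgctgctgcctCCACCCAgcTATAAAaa

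A window was matched to 9 of the 10 genes (10 windows, since Pax6 had 2). They were searched on both strands, over these 250 bases, for the nuclear receptor core site AGGTCA, the extended site TCAAGGTCA that Nr6a1 is known to bind, the Gli site GACCACCCA and its core CCACCCA, which lies inside it, and the TATA box TATAAA. Of the windows of all genes, 14.0% held AGGTCA, 0.387% held TCAAGGTCA, 0.225% held GACCACCCA, 8.11% held CCACCCA and 12.4% held TATAAA. None of the 3 ventral windows held AGGTCA, the longer TCAAGGTCA or GACCACCCA, and Olig2 held CCACCCA 17 bases and TATAAA 8 bases before its start. AGGTCA was found in the Sox2 window alone, on the reverse strand and 244 bases before the start, and TATAAA also in those of Dbx1 and Msx3. The members' windows had more CpG dinucleotides than most, with a median of 16.5 (8 to 30) against 6 over all windows. The ventral genes covered that whole range, with 8 in the Nkx2-2 window, 30 in that of Nkx6-1 and 22 in that of Olig2. A match is a description of these letters and shows no binding.

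Nkx2-2, a homeodomain factor of the most ventral neural progenitors next to the floor plate, had the smallest adjusted p of the 10 genes. Its signal was 5.26 and 5.22 in Gcnf-/- embryos, against 6.22 and 6.18 in wt embryos. The replicates of each genotype nearly coincided and the genotypes were separated by 0.92. The means were 5.24 ± 0.03 in Gcnf-/- embryos and 6.20 ± 0.03 in wt embryos (SD, n = 2 each), a log2 difference of -0.96 (SE 0.07, 95% confidence interval -1.14 to -0.79), or 1.95-fold, with a limma adjusted p of 0.0166. It passed the adjusted p, and the measured difference was under the 2-fold threshold. The adjusted p was 0.108 to 0.201 with any 1 of the 4 arrays left out and 0.160 with the replicate number as a block, so that it was passed only with all arrays and no block. Both Gcnf-/- signals lay under the olfactory receptor level of 6.07, and both wt signals lay a little above it, so the fold of the transcript itself is not determined by the measured 1.95-fold. Nkx2-2 is also expressed in the pancreas, whose markers are given below.

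Olig2, the basic helix-loop-helix factor of the motor neuron progenitor domain, had 6.76 and 6.10 in Gcnf-/- embryos, against 7.40 and 7.05 in wt embryos. The genotypes did not overlap, but the 2 Gcnf-/- embryos lay farther from each other than the nearer of them lay from wt. The means were 6.43 ± 0.46 in Gcnf-/- embryos and 7.23 ± 0.25 in wt embryos (SD, n = 2 each). The log2 difference of -0.80 (SE 0.24, 95% confidence interval -1.41 to -0.18; 1.74-fold) did not pass the test at a limma adjusted p of 0.170. Without Gcnf-/- replicate 1 the difference was -1.13, and without Gcnf-/- replicate 2 it was -0.47. Of all genes, 0.495% had a lower difference.

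Nkx6-1, a homeodomain factor of the ventral tube that spans several progenitor domains, had 7.69 and 7.67 in Gcnf-/- embryos, against 8.11 and 8.04 in wt embryos. The replicates were close in both genotypes, and the gap between the genotypes was 0.35. The log2 difference of -0.39 (SE 0.07, 95% confidence interval -0.57 to -0.21; 1.31-fold) had a limma adjusted p of 0.0817 and missed the threshold. Over the alternatives the adjusted p ran from 0.0392 to 0.373. It was passed in 2 of them, with only probe sets above the olfactory receptor level tested (0.0392) and with an intensity trend in the variance (0.0402), and it was 0.205 or more with any array left out. Nkx6-1 is, like Nkx2-2, also a gene of the pancreatic bud.

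Dbx1, a homeodomain factor of a narrow intermediate stripe that gives rise to commissural interneurons, had 6.56 and 6.51 in Gcnf-/- embryos, against 6.99 and 6.86 in wt embryos. The genotypes were 0.30 apart. The log2 difference was -0.39 (SE 0.08, 95% confidence interval -0.59 to -0.19; 1.31-fold), with a limma adjusted p of 0.0970. Dbx1 was the only one of the 4 dorsal and intermediate genes whose brightest probe set lay below wt without overlap.

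**Figure D2:**
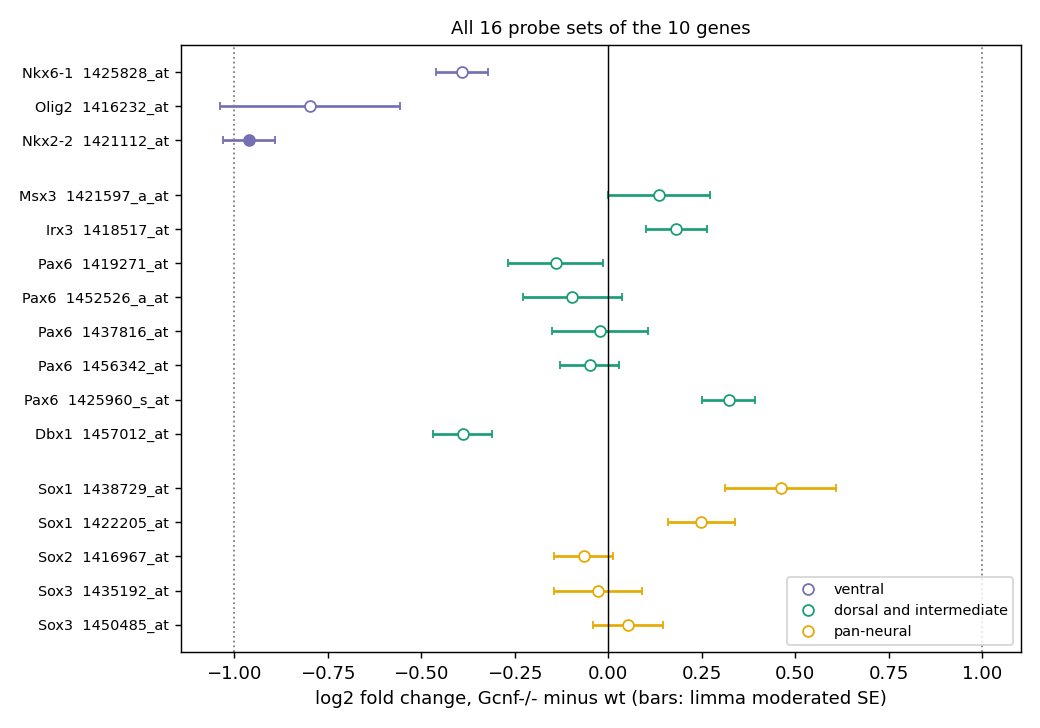
Log2 difference of each of the 16 probe sets, Gcnf-/- minus wt (horizontal axis), with bars for the SE of limma, which are narrower than the 95% confidence intervals in the text. The filled point passed the adjusted p of 0.05 and open points did not, and the only filled point is Nkx2-2 at -0.96.

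Pax6, a paired and homeodomain factor spread over the intermediate tube and also over the eye and forebrain, was not separated by genotype on its brightest probe set. It had 9.39 and 9.09 in Gcnf-/- embryos, against 9.46 and 9.30 in wt embryos, a log2 difference of -0.14 (SE 0.13, 95% confidence interval -0.46 to 0.18, limma adjusted p = 0.605). Of the 4 other Pax6 probe sets, 3 lay within 0.10 of wt, with limma adjusted p between 0.753 and 0.956. The remaining one lay on the other side of wt, with 6.12 and 6.08 in Gcnf-/- embryos and 5.74 and 5.82 in wt embryos. Its log2 difference of 0.32 (SE 0.07, limma adjusted p = 0.108) was measured close to the olfactory receptor level, and the s_at suffix of its name marks probes that can match more than 1 transcript. The probe sets of Pax6 thus gave no common direction.

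Irx3, an Iroquois factor that is absent from the ventral domains and bounds Olig2 on its dorsal side, had 11.48 and 11.62 in Gcnf-/- embryos, against 11.40 and 11.34 in wt embryos. The genotypes were apart by only 0.08, and the log2 difference of 0.18 (SE 0.08, 95% confidence interval -0.03 to 0.39) had a limma adjusted p of 0.298. Msx3, a homeodomain factor found in the dorsal neural tube, had 8.17 and 7.81 in Gcnf-/- embryos and 7.80 and 7.92 in wt embryos. These values overlapped, and the log2 difference was 0.13 (SE 0.14, 95% confidence interval -0.21 to 0.48, limma adjusted p = 0.649). Its sign rested on Gcnf-/- replicate 1, without which the difference was -0.046.

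Sox2, the SoxB1 factor shared by all neural progenitors and also made in foregut and pluripotent cells, had 11.27 and 11.18 in Gcnf-/- embryos, against 11.34 and 11.24 in wt embryos. The values overlapped, and the 95% confidence interval of the log2 difference of -0.07 (SE 0.08, limma adjusted p = 0.713) ran from -0.27 to 0.14. Sox3, an X-linked SoxB1 gene, had 9.89 and 10.004 in Gcnf-/- embryos and 10.12 and 9.83 in wt embryos on its brighter probe set. Its log2 difference was -0.03 (SE 0.12, 95% confidence interval -0.33 to 0.27, limma adjusted p = 0.936), and its second probe set, at 0.053 (limma adjusted p = 0.816), overlapped too. Without wt replicate 1, the female embryo, the brighter probe set gave 0.12.

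Sox1, the SoxB1 factor most confined to neural cells, lay on the other side of wt from the ventral genes. The brighter probe set had 8.82 and 9.24 in Gcnf-/- embryos, against 8.53 and 8.60 in wt embryos. The log2 difference was 0.46 (SE 0.15, 95% confidence interval 0.08 to 0.84; 1.38-fold), with a limma adjusted p of 0.188. The second probe set had 6.74 and 6.93 in Gcnf-/- embryos and 6.58 and 6.60 in wt embryos, a log2 difference of 0.25 (SE 0.09, limma adjusted p = 0.221). Neither probe set overlapped between genotypes and neither passed the test. Without Gcnf-/- replicate 1 the difference of the brighter one was 0.67, and without Gcnf-/- replicate 2 it was 0.25. Of all genes, 3.81% had a higher difference than Sox1.

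Set side by side with 1 probe set per gene, the ventral genes had a median log2 difference of -0.80, the dorsal and intermediate genes one of -0.0027 and the pan-neural genes one of -0.027, against -0.010 over all 18193 genes. Over all genes 52.8% lay below wt, and the 5th and 95th percentiles of the differences were -0.33 and 0.40. All 3 ventral genes lay below the lower of these. At an unadjusted limma p under 0.05, 3 of 3 ventral genes, 1 of 4 dorsal and intermediate genes and 0 of 3 pan-neural genes were lower, where 11.9% of all genes were, and 1 pan-neural gene, Sox1, was higher, where 11.9% of all genes were. The arrays did not overlap, with Gcnf-/- below wt, for 4 of the 10 genes, where this held for 30.4% of all genes. With Gcnf-/- above wt it held for 2 of the 10 genes and for 26.2% of all genes.

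The comparison of ventral with other genes was also made within each array, as the mean of each class after the wt mean of every gene was subtracted. The ventral class stood at -0.60 and -0.83 in Gcnf-/- embryos, against 0.08 and -0.08 in wt embryos. The dorsal and intermediate class stood at 0.02 and -0.13 in Gcnf-/- embryos and at 0.03 and -0.03 in wt embryos, and the pan-neural class at 0.05 and 0.20 in Gcnf-/- embryos and at 0.05 and -0.05 in wt embryos. Only the ventral class did not overlap between the genotypes, and its gap was wider than the distance between the embryos of either genotype. Ventral minus pan-neural was -0.65 and -1.03 in Gcnf-/- embryos and 0.02 and -0.02 in wt embryos, a mean difference of -0.84. Ventral minus dorsal and intermediate was -0.62 and -0.71 in Gcnf-/- embryos and 0.05 and -0.05 in wt embryos, a mean difference of -0.66. No p is given for these scores, because the genes were chosen with results of these data known.

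**Figure D3:**
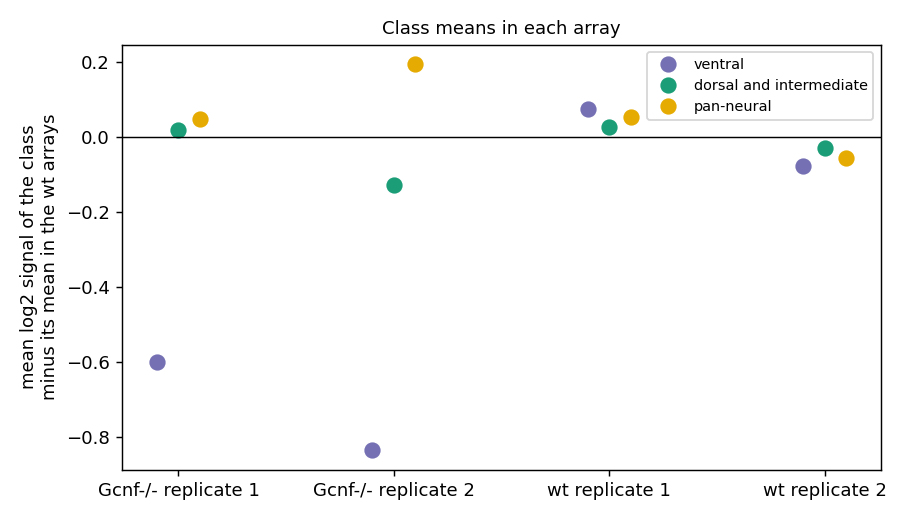
Mean log2 signal of each class of genes in each embryo, relative to the wt mean of every gene (vertical axis), for ventral, dorsal and intermediate, and pan-neural genes, with Gcnf-/- embryos left of wt embryos. The ventral class stands at -0.60 and -0.83 in the Gcnf-/- embryos, and the other classes stay within 0.20 of wt.

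Sonic hedgehog induces the ventral genes, and its pathway was examined as a list of 14 genes, 13 of them measured. None was called in either direction, 7 lay below wt and 6 above, and the median log2 difference was -0.04, with genes from -0.22 to 0.43. Over the alternatives, each array left out among them, this median ran from -0.098 to 0.060, and the range given after each list's median below is of the same kind. Shh, the ligand, had 10.31 and 10.28 in Gcnf-/- embryos and 10.42 and 10.51 in wt embryos (log2 difference -0.17, limma adjusted p = 0.280). Ptch1, the receptor and a direct target of the signal, had 12.02 and 12.04 in Gcnf-/- embryos and 11.80 and 11.92 in wt embryos (log2 difference 0.17, limma adjusted p = 0.305). Gli1, a transcription factor that is itself a target, had 8.42 and 8.38 in Gcnf-/- embryos and 8.23 and 8.14 in wt embryos (log2 difference 0.22, limma adjusted p = 0.199). These are the brightest probe sets, and other probe sets did not all lie on the same side. A second probe set of Shh, above the olfactory receptor level in 1 array, was at 0.24 (limma adjusted p = 0.332), and the other Ptch1 probe sets were at 0.62 (limma adjusted p = 0.0958) and -0.060 (limma adjusted p = 0.744). Ptch1 and Gli1 are targets of the signal in many tissues of the embryo. The smallest p on the list was that of Boc, a co-receptor, at a log2 difference of 0.43 (limma adjusted p = 0.0746). Scube2, which helps release the ligand, was at 0.37 (limma adjusted p = 0.171), and Disp1, the ligand's exporter, at -0.22 (limma adjusted p = 0.179).

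The floor plate and notochord, which make the ligand, were represented by 7 measured genes of 10. None was called, 4 lay below wt and 3 above, and the median log2 difference was -0.0043 (-0.080 to 0.040). Foxa2, a forkhead factor of both structures and of the endoderm, had 9.38 and 9.43 in Gcnf-/- embryos and 9.31 and 9.17 in wt embryos (log2 difference 0.16, limma adjusted p = 0.338). Ntn1, the floor plate axon guidance factor netrin-1, had 9.54 and 9.57 in Gcnf-/- embryos and 9.97 and 9.91 in wt embryos (log2 difference -0.39, limma adjusted p = 0.0819). Spon1, which encodes the floor plate protein F-spondin, was at 0.42 (limma adjusted p = 0.180). The members of the list did not lie on one side of wt.

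The list of other ventral and intermediate progenitor genes, which also holds the dorsal factor Ptf1a, lay on both sides of wt. Of 8 listed, 7 were measured, of which 3 lay below wt and 4 above, Ptf1a among the latter. None was called, and the median log2 difference, with Ptf1a included, was 0.12 (0.017 to 0.198). Nkx2-9, a close relative of Nkx2-2 that is active in the same ventral cells, had 8.89 and 8.99 in Gcnf-/- embryos and 9.09 and 9.23 in wt embryos (log2 difference -0.22, limma adjusted p = 0.238). Nkx6-2, a relative of Nkx6-1, was at -0.02 (limma adjusted p = 0.917). The one gene of this list past the adjusted p was Ptf1a, a factor of dorsal interneuron progenitors and of the pancreas, with 5.86 and 5.70 in Gcnf-/- embryos and 4.78 and 4.90 in wt embryos. Its log2 difference was 0.94 (SE 0.09, limma adjusted p = 0.0338), and all 4 signals lay under the olfactory receptor level. Irx5, an Iroquois gene beside Irx3 in the genome, was at 0.51 (limma adjusted p = 0.0811).

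Roof plate and dorsal progenitor genes lay on both sides of wt. Of 15 listed, 13 were measured, with 6 below wt and 7 above, a median log2 difference of 0.07 (-0.021 to 0.136) and 1 called, in the higher direction. That gene was Olig3, the basic helix-loop-helix factor of the dorsalmost progenitors and a relative of Olig2, with 8.37 and 8.77 in Gcnf-/- embryos, against 7.38 and 7.19 in wt embryos. It rose by a log2 difference of 1.29 (SE 0.15, limma adjusted p = 0.0438). Zic1, a zinc finger factor of the dorsal tube and somites, had 8.82 and 7.999 in Gcnf-/- embryos, against 10.07 and 9.93 in wt embryos. Its log2 difference of -1.59 (SE 0.27) did not pass at a limma adjusted p of 0.0746, the Gcnf-/- embryos being 0.82 apart. Msx2, a roof plate target of BMP, was at 0.59 (limma adjusted p = 0.0771), and Wnt1, a roof plate ligand, at -0.24 (limma adjusted p = 0.150).

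General neural progenitor genes, some of which are active in other tissues too, were all 14 measured. Of these 8 lay below wt and 6 above, none was called, and the median log2 difference was -0.05 (-0.070 to 0.032). Their mean signal was 9.49 and 9.42 in Gcnf-/- embryos and 9.34 and 9.37 in wt embryos. The median thus lay slightly below wt while the mean lay above it, and 1 gene, Fabp7, stood far from the rest. Fabp7, the radial glial fatty acid binding protein, had 10.59 and 10.34 in Gcnf-/- embryos and 7.94 and 8.84 in wt embryos, a log2 difference of 2.07 (SE 0.30) with a limma adjusted p of 0.0579.

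**Figure D4:**
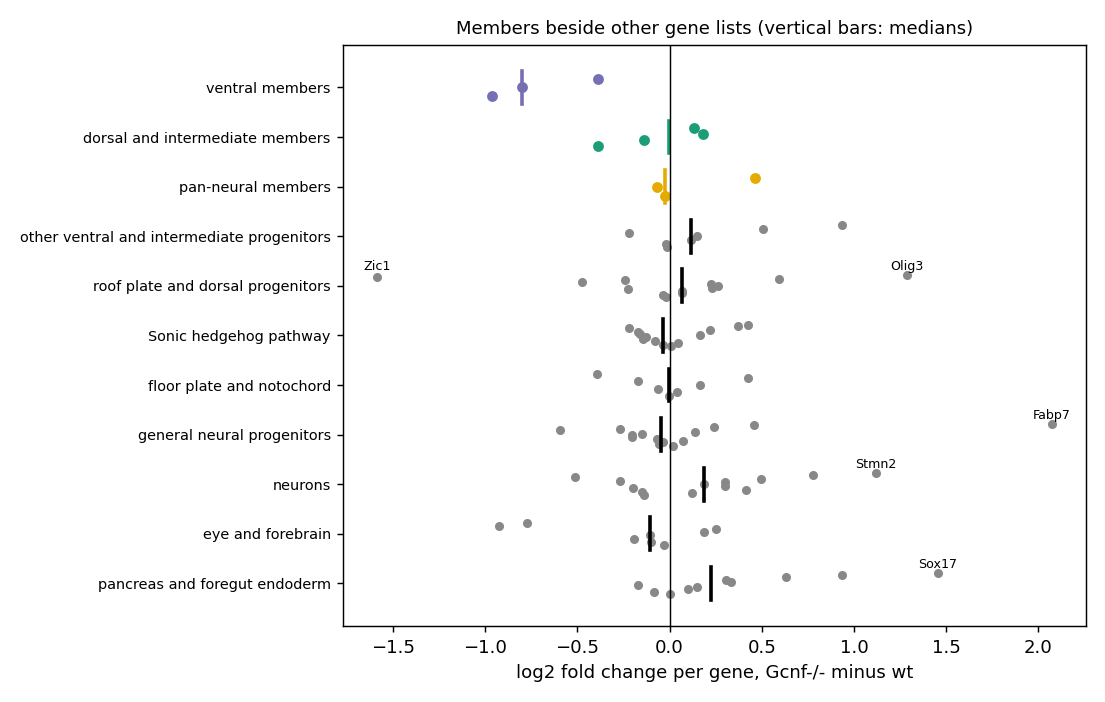
Log2 difference, Gcnf-/- minus wt (horizontal axis), of every measured gene (points) of the classes and gene lists drawn, with the median of each as a bar. The lists of pluripotent and germ cells, neuromesodermal progenitors, somite and intermediate mesoderm, and placodes are not drawn. The 3 ventral genes lie from -0.96 to -0.39, while the Sonic hedgehog pathway runs from -0.22 to 0.43 around a median of -0.04.

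Several of the 10 genes are also active outside the neural tube, and the markers of those tissues were read in the same embryos. Pancreas and foregut genes, 10 of 11 measured, had 8 above wt and 2 below, a median log2 difference of 0.23 (0.123 to 0.276) and 1 called higher, Sox17 at 1.46. Their mean signal was 8.74 and 8.74 in Gcnf-/- embryos and 8.34 and 8.42 in wt embryos. Epcam, at 0.63 on its brightest probe set (limma adjusted p = 0.0414), and Ptf1a, at 0.94 (limma adjusted p = 0.0338), passed the adjusted p without being called. Pdx1, also of this list, was at 0.0027 on its brightest probe set (limma adjusted p = 0.994). It lay above the olfactory receptor level in all 4 embryos. The part of these tissues in the Nkx2-2 and Nkx6-1 signals was not tested. Ptf1a and Neurog3, factors of the pancreatic bud, lay under the olfactory receptor level in all 4 embryos, and Shh and Ptf1a are counted in other lists as well. Eye and forebrain genes, 8 of 11 measured, had 6 below wt and 2 above, a median of -0.10 (-0.127 to -0.010) and none called, although Emx2, a forebrain homeodomain gene, passed the adjusted p at -0.77 (limma adjusted p = 0.0444). Their mean signal was 7.77 and 7.73 in Gcnf-/- embryos and 7.99 and 7.93 in wt embryos, and its part in the Pax6 signals was not tested.

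The markers of pluripotent and germ cells held a few genes far above wt. All 9 were measured, 7 lay above wt and 2 below, with a median log2 difference of 0.32 (0.169 to 0.500), and 3 were called higher: Pou5f1 at 5.38, Nanog at 3.41 and Klf4 at 1.52. The other 6 did not pass the test. The mean signal of all 9, with the called genes included, was 7.71 and 7.97 in Gcnf-/- embryos and 6.50 and 6.68 in wt embryos. Neuromesodermal progenitor genes, which mark the bipotent tail bud cells that supply the posterior neural tube, were measured for 9 of 10, with 6 above wt, 3 below, a median of 0.07 (-0.050 to 0.136) and 1 called higher, Wnt8a at 2.45 (limma adjusted p = 0.0481). Their mean signal was 7.81 and 8.18 in Gcnf-/- embryos and 7.54 and 7.68 in wt embryos. Sox2 belongs to the expressed genes of both cell types, and their part in its signals was not tested.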

How the data were processed

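RNA of 2 Gcnf-/- and 2 wt whole mouse embryos was amplified, labelled and hybridised to 1 array each. The authors deposited log2 signals made from the scans with RMA (background correction, quantile normalisation, probe summary). Quantile normalisation hides shifts shared by most transcripts, and dim probe sets understate a fold change. The sources used here do not give the version or annotation of RMA. For the main fit nothing was normalised again.

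Of 45101 probe sets the 64 control probe sets were left out. The platform annotation gave 34945 probe sets 1 symbol, 932 several and 9160 none, and all 10 genes matched RefSeq (GRCm38.p6) by Entrez identifier. A gene was its probe set with the highest mean signal. Genotypes were compared by limma 3.58.1 (lmFit, eBayes) under R 4.3.3, with Benjamini-Hochberg adjustment over 45037 probe sets and the study's thresholds. The prior standard deviation was 0.0849 with 3.16 prior degrees of freedom, and the number of arrays limits the precision. The procedure was tested on simulated data.

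The genes and lists were chosen with earlier results of these data known. Named were all probe sets of the 10 genes and Nr6a1, together with sex and control probe sets. From other lists, genes among the 4 with the smallest p or called were named. The ligand, targets, relatives and Pdx1, which a reader would look for, were also named, chosen after their values were seen. As alternatives, the fit was repeated with a replicate block, without each array in turn, with a filter at the olfactory receptor level, repeated quantile normalisation, median centring, other variance models, other fold thresholds, exclusion of shared-sequence probe sets, and other choices of probe set per gene.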

Additional observations from a re-analysis of the deposited data

How the results depend on the processing

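The 3 ventral genes lay below wt under all alternatives run that gave them a value. Same-numbered arrays did not deviate together (correlation 0.06), so the replicate numbers were taken as names only. With the replicate number as a block 0 probe sets were called lower and 0 higher (8358 at an unadjusted limma p of 0.05), and Nkx2-2 had an adjusted p of 0.160. Leaving out each array gave 0 to 2 probe sets called lower and 0 to 7 higher (5241 to 7244 at the unadjusted p), and an adjusted p of 0.108 to 0.201 for Nkx2-2. In the alternatives with all arrays, no block and a test against no difference it was 0.00751 to 0.0178. Testing against the fold threshold (treat) gave 0 lower and 8 higher, an intensity trend 61 lower, and no fold threshold 115 lower and 324 higher, among them 1 member probe set, that of Nkx2-2. The ventral median was -0.98 to -0.47 with each array left out and -0.59 above the olfactory receptor level, where Nkx2-2 drops out. The dorsal and intermediate median was -0.17 (without Gcnf-/- replicate 1) to 0.063, -0.14 when shared-sequence probe sets were dropped and 0.16 when genes were represented by their lowest-p probe set. The pan-neural median was -0.12 to 0.12, the highest without wt replicate 1. Ventral minus dorsal and intermediate was -0.71 to -0.61 with each array left out, -0.54 above the olfactory receptor level and -0.78 for lowest-p probe sets, and ventral minus pan-neural was -1.03 to -0.65. Changes of sign were seen for 3 genes with small differences. Msx3 ran from -0.046 (without Gcnf-/- replicate 1) to 0.32 with each array left out. Pax6 ran from -0.29 to 0.014 (the highest without Gcnf-/- replicate 2), with 0.0030 for the mean of its probe sets and 0.32 for the lowest-p one. Sox3 ran from -0.17 to 0.12 (0.029 without Gcnf-/- replicate 1, 0.12 without wt replicate 1), with 0.013 for the mean and 0.053 for the lowest-p probe set. Leaving out 1 array turned the sign of the list medians of the Sonic hedgehog pathway (0.060 without wt replicate 2), general neural progenitors (0.032 without Gcnf-/- replicate 2), neuromesodermal progenitors (-0.050 without wt replicate 1), floor plate and notochord (0.027 without Gcnf-/- replicate 1, 0.032 without wt replicate 2) and placodes (0.060 without Gcnf-/- replicate 1, 0.053 without wt replicate 1). The median of other ventral and intermediate progenitors was 0.017 without Gcnf-/- replicate 2. Apart from what a setting removes, the cause was not tested. Signals of Nkx2-2 near the olfactory receptor level limit how well its fold is known.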

Other observations

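Cells that arise from the progenitors were read with 14 neuronal genes, of which 13 were measured. None was called, 8 lay above wt and 5 below, and the median log2 difference was 0.19 (0.027 to 0.301 over the alternatives, the lowest without Gcnf-/- replicate 1). Stmn2, a microtubule regulator of young neurons, was at 1.12 (limma adjusted p = 0.0641) and Elavl3, a neuronal RNA binding protein, at 0.78 (limma adjusted p = 0.0811). Mnx1, a homeodomain factor of the motor neurons that come from Olig2 progenitors, had 5.54 and 5.65 in Gcnf-/- embryos and 5.95 and 6.27 in wt embryos, a log2 difference of -0.51 (limma adjusted p = 0.123), and 3 of these 4 signals lay under the olfactory receptor level. Isl1, of motor and sensory neurons and of the heart, was at 0.50 (limma adjusted p = 0.134). No list of motor neuron genes was tested.

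The mesoderm beside the neural tube was read with 8 somite and intermediate mesoderm genes, 5 below wt and 3 above, with a median of -0.42 (-0.537 to -0.295). Of these 1 was called lower, Pax8, a paired box factor of the early kidney and otic region, at -1.18 (limma adjusted p = 0.0133). Placode and otic genes, 5 of 7 measured, had 4 below wt, 1 above, a median of -0.04 (-0.377 without shared-sequence probe sets to 0.060 without Gcnf-/- replicate 1) and none called, with Tbx1, a T-box factor of the otic vesicle and pharynx, past the adjusted p at -0.66 (limma adjusted p = 0.0397).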
